A study of Mus musculus with 6 samples.

Results

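The genes of 9 chemokine and chemoattractant receptors were followed, out of 25206 probe sets on the array. They were taken by name (Ccr1, Ccr2, Cx3cr1, Cxcr4, C5ar1, C3ar1, Fpr1, Fpr2 and Cmklr1), and all 9 were measured, each by 1 probe set. The cells were mouse bone marrow derived macrophages. Cells of 3 samples were given the Hsp70 inhibitor JG-98 (0.3 micromole, 16 hours), and 3 samples were labelled as controls. Hsp70 proteins are chaperones that help other proteins fold. The labels state the dose as an amount, and give no volume, vehicle, strain, age or culture medium. Whether the replicates were separate animals, separate cultures or repeats of 1 culture is not stated, so each p-value is set against a spread between samples that may be purely technical.

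These receptors are G protein-coupled receptors of the cell membrane that act mainly through inhibitory G proteins and steer leukocytes along gradients of a ligand. Chemokine receptors bind small secreted chemokines, the anaphylatoxin receptors bind fragments cut from complement proteins, the formyl peptide receptors sense bacterial and mitochondrial peptides, and Cmklr1 binds the adipokine chemerin. After activation, kinases phosphorylate the receptor, arrestins bind it, and it is taken into the cell.

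Macrophage transcripts were high on every array. The 9 measured macrophage markers, among them the growth factor receptor gene Csf1r and the F4/80 gene Adgre1, had log2 values of 8.27 to 12.13. The 41 measured markers of other cell types had log2 values of 1.04 to 5.10. Averaged over each list, the macrophage markers lay at 10.18 to 10.24 on JG-98 arrays and 10.23 to 10.27 on control arrays. The markers of other cell types lay at 2.90 to 3.10 on JG-98 arrays and 2.90 to 3.00 on control arrays. Single macrophage markers differed between the groups, JG-98 minus control, by -0.22 to 0.08. JG-98 replicate 3 stood apart, with correlations of 0.992 to 0.993 to the other arrays.

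None of the 9 receptors passed the test at an adjusted p under 0.05 (limma, Benjamini-Hochberg adjustment over all probe sets), against 0.0397% of all probe sets called. Of the 9, Cxcr4 had an unadjusted p under 0.05, where 8.32% of all probe sets did. The difference, JG-98 minus control, was below 0 for 7 receptors and above 0 for 2, with a median of -0.15 on the log2 scale. Over all probe sets, 49.7% were below 0 and the median was 0.00080. All JG-98 values lay below all control values for 3 receptors (Cxcr4, C5ar1 and C3ar1), as they did for 8.44% of all probe sets, and none lay wholly above them. In the 5 receptors with a mean log2 value of at least 6, all 5 differences were below 0, where 53.4% of probe sets at such levels were. The groups did not overlap for 3 of these 5, with JG-98 lower, against 16.7% of probe sets at such levels. In these bulk samples, fewer cells of a type and less RNA per cell cannot be told apart.

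The promoters of 3 receptors are shown because they belong to the receptors whose groups did not overlap. Each is the 250 bases before the transcription start in RefSeq (GRCm38.p6), on the strand of the gene. They are chr1:128592300-128592549 for Cxcr4, chr6:122856158-122856407 for C3ar1 and chr7:16259339-16259588 for C5ar1, all on the minus strand. Capitals mark matches to the motifs searched.
Cxcr4: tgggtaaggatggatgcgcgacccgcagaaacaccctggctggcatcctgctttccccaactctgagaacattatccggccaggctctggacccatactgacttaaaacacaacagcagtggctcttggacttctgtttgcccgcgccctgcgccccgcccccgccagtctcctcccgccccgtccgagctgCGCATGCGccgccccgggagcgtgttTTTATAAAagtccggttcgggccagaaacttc
C3ar1: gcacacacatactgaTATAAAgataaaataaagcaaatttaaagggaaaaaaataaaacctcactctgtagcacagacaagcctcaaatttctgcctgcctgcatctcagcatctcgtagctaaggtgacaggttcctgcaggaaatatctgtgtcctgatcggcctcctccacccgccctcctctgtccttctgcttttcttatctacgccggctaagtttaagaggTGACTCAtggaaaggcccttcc
C5ar1: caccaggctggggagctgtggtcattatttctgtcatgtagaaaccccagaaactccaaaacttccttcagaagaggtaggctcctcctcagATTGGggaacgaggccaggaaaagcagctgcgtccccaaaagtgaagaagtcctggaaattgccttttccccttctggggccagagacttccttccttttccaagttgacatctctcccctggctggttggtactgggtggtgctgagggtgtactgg

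Both strands were searched for 7 motifs, and each is given with the share of 32851 RefSeq promoter windows that hold it. The TATA box (TATAAA, 12.4% of windows) was matched in Cxcr4, C3ar1, Fpr1 and Fpr2. In Cxcr4 it lay 32 to 25 bases before the start, where overlapping matches on the 2 strands form 1 stretch, and in C3ar1 it lay 235 to 230 bases before the start. The AP-1 motif (TGANTCA, 6.75%) was matched in C3ar1, 22 to 16 bases before the start. The CCAAT box (CCAAT, 33.8%) was matched in C5ar1, Cx3cr1, Fpr1, Fpr2 and Cmklr1. The core bound by the myeloid factor PU.1 (GAGGAA, 23.3%) was matched in Ccr1, Fpr2 and Cmklr1, and the core of the hypoxia response element (ACGTG, 16.6%) in Cmklr1. The composite motif of ATF4 and CHOP (TGATGNAA, 3.45%) was found in none of the 9 windows. The motif of NRF1 (GCATGCG, 3.02%), a factor known to bind the human CXCR4 promoter, was matched in Cxcr4, 58 to 51 bases before the start in overlapping matches on both strands, and was added after the sequence had been read. The Cxcr4 window had 61.2% G and C and 19 CpG sites, where the median window had 52.4% and 6. The C3ar1 window had 45.6% and 5 CpG sites, and the C5ar1 window 52.8% and 2.

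Cxcr4 encodes the receptor of the chemokine CXCL12, which holds leukocytes and their precursors in the marrow. Its log2 values were 8.53, 8.52 and 8.46 on JG-98 replicates 1 to 3, against 8.86, 8.88 and 8.85 on control replicates 1 to 3. All JG-98 values were lower, and the gap between the groups, 0.32, was wider than the spread within either one. The difference was -0.36 ± 0.061 (SE, n = 3 per group), which is 77.9% of the control level with an unadjusted 95% interval of 70.4% to 86.2%. Over all probe sets it did not pass (limma adjusted p = 0.23, unadjusted p = 7.5e-04). It passed with an intensity trend in the variance prior (limma adjusted p = 0.0051), where 1.01% of all probe sets were called. It also passed when the test was limited to probe sets with a mean of at least 6 (limma adjusted p = 0.0080) or at least 5 (limma adjusted p = 0.018), where 4.77% and 2.3% were called. The difference stayed between -0.37 and -0.34 whichever array was left out (limma adjusted p = 0.29 to 0.75), and was -0.34 ± 0.060 without JG-98 replicate 3.

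Ccr1 encodes a receptor for CCL3, CCL5 and other inflammatory chemokines. Its log2 values were 6.51, 6.63 and 6.08 on JG-98 arrays, against 6.66, 6.69 and 6.54 on control arrays. JG-98 replicate 3 was the lowest of all 6, and the groups overlapped. The difference was -0.23 ± 0.15 (SE, n = 3 per group, limma adjusted p = 0.75), and it was -0.06 ± 0.081 without JG-98 replicate 3. Its 95% interval ran from 66.8% to 109% of the control level.

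Ccr2 encodes the receptor through which CCL2 draws monocytes out of marrow and into tissue. Its log2 values were 4.77, 4.79 and 4.42 on JG-98 arrays, against 5.09, 4.50 and 4.94 on control arrays. The groups overlapped, with JG-98 replicate 3 and control replicate 2 the lowest. The difference was -0.19 ± 0.18 (SE, n = 3 per group, limma adjusted p = 0.83). It was -0.07 without JG-98 replicate 3, -0.06 without control replicate 1 and -0.36 without control replicate 2. The 95% interval ran from 65.7% to 118% of the control level.

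Cx3cr1 encodes the receptor of fractalkine, the membrane-bound chemokine CX3CL1, and marks patrolling monocytes and many tissue macrophages. Its log2 values were 6.87, 6.83 and 7.01 on JG-98 arrays, against 7.10, 6.94 and 7.11 on control arrays. Only JG-98 replicate 3 reached into the control range. The difference was -0.15 ± 0.083 (SE, n = 3 per group, limma adjusted p = 0.71), and -0.20 without JG-98 replicate 3.

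C5ar1 and C3ar1 encode the receptors for the complement fragments C5a and C3a. C3ar1 had log2 values of 11.15, 11.08 and 11.13 on JG-98 arrays, against 11.24, 11.24 and 11.26 on control arrays. All JG-98 values were lower, by a gap of 0.091 between the groups. The difference was -0.13 ± 0.061 (SE, n = 3 per group, limma adjusted p = 0.66), which is 91.7% of the control level with a 95% interval of 82.9% to 101%. It lay between -0.14 and -0.11 with any 1 array left out. With an intensity trend the adjusted p was 0.073 (limma).

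C5ar1 had log2 values of 8.81, 8.86 and 8.79 on JG-98 arrays, against 8.87, 8.93 and 8.90 on control arrays. The groups were parted by a gap of 0.0023, far less than the spread within either group. The difference was -0.08 ± 0.062 (SE, n = 3 per group, limma adjusted p = 0.80), and its 95% interval ran from 85.6% to 105% of the control level. Its neighbour on chromosome 7, C5ar2, which encodes a second C5a receptor that does not signal through G proteins, had values of 7.86, 7.81 and 7.71 on JG-98 arrays, against 8.02, 7.91 and 7.93 on control arrays. Its difference was -0.16 ± 0.072 (limma adjusted p = 0.63), also with all JG-98 values lower.

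Ccr2, Fpr1, Fpr2 and Cmklr1 were the 4 receptors with a mean log2 value under 6. Ccr2 exceeded every marker of another cell type on the same array on 4 of 6 arrays, and Fpr1, Fpr2 and Cmklr1 did so on 0 of 6. Signal of Fpr1, Fpr2 and Cmklr1 could not be told from background, and log2 differences between dim probe sets are compressed. Fpr1, the high-affinity receptor for formylated peptides, had log2 values of 3.22, 3.17 and 3.21 on JG-98 arrays, against 3.13, 3.23 and 3.08 on control arrays. The difference was 0.05 ± 0.068 (limma adjusted p = 0.89), with overlapping groups, and lay between 0.021 with control replicate 3 left out and 0.092 with control replicate 2 left out. Fpr2, a receptor for many peptides and for annexin A1, had log2 values of 2.37, 2.31 and 1.75 on JG-98 arrays, against 2.25, 1.83 and 1.64 on control arrays. The difference was 0.24 ± 0.22 (limma adjusted p = 0.82). The groups overlapped, and leaving out JG-98 replicate 3 gave a difference of 0.43, while leaving out control replicate 3 gave 0.10.

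Cmklr1, the chemerin receptor, had log2 values of 3.63, 3.65 and 3.75 on JG-98 arrays, against 4.35, 4.07 and 3.40 on control arrays. The JG-98 values lay together inside the control range, which was the widest of the 9 receptors. The difference was -0.26 ± 0.23 (SE, n = 3 per group, limma adjusted p = 0.82). Leaving out control replicate 3 gave -0.53, and leaving out control replicate 1 gave -0.06.

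**Figure D1:**
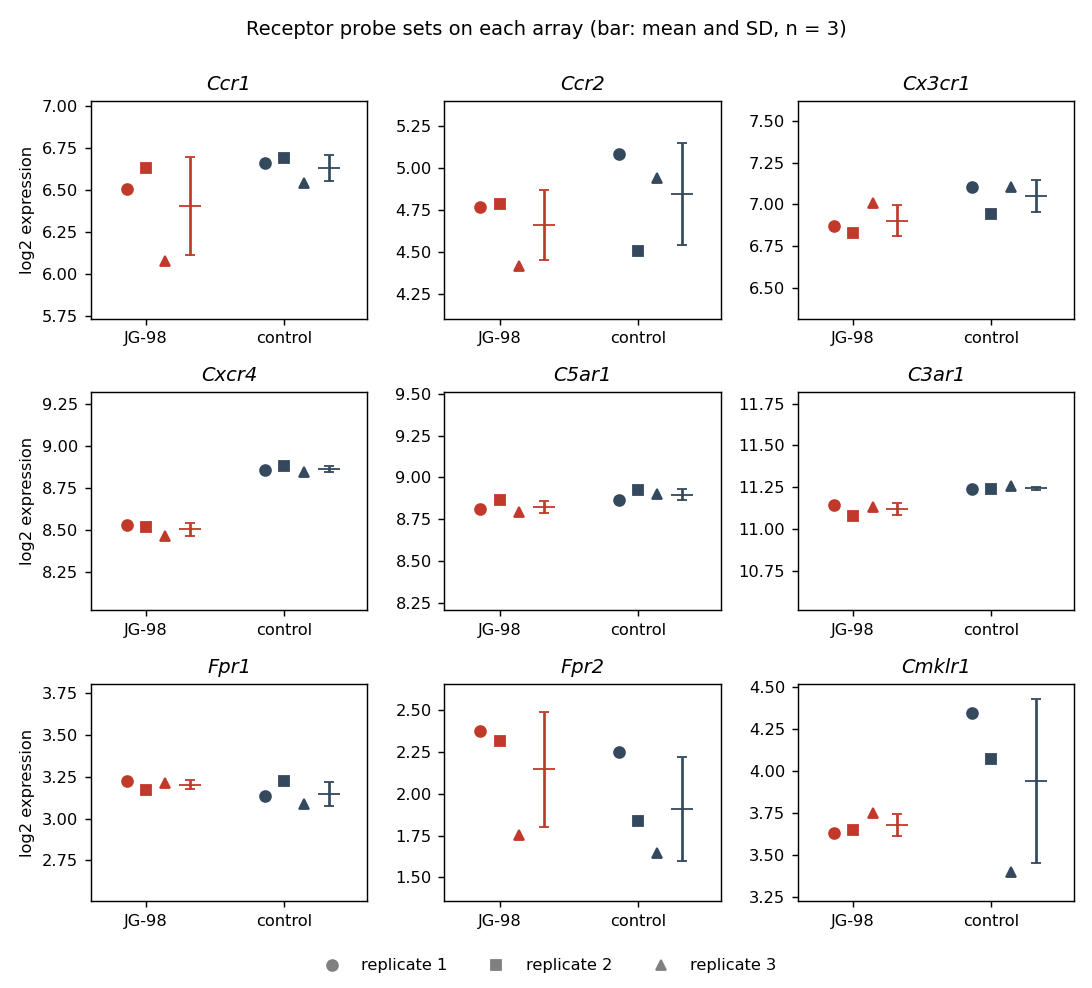
Log2 expression (vertical axis, 1.3 log2 units in every panel) of each receptor on the 3 JG-98 and 3 control arrays, 1 point per array with a shape for the replicate number, and the mean with its SD beside them. Cxcr4 is the receptor with a wide gap, at 8.46 to 8.53 with JG-98 and 8.85 to 8.88 in controls, while JG-98 replicate 3 sits apart from the other JG-98 arrays in Ccr1, Ccr2 and Fpr2.

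JG-98 replicate 3 differed from the mean of the other JG-98 arrays by -0.49 in Ccr1, -0.36 in Ccr2 and -0.59 in Fpr2. In Cxcr4, C5ar1, C3ar1 and Fpr1 it differed by -0.06 to 0.019. In Cx3cr1 it was 0.16 higher, and in Cmklr1 0.11 higher. What sets this array apart was not tested. The median difference of the 9 receptors was -0.07 without it.

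**Figure D2:**
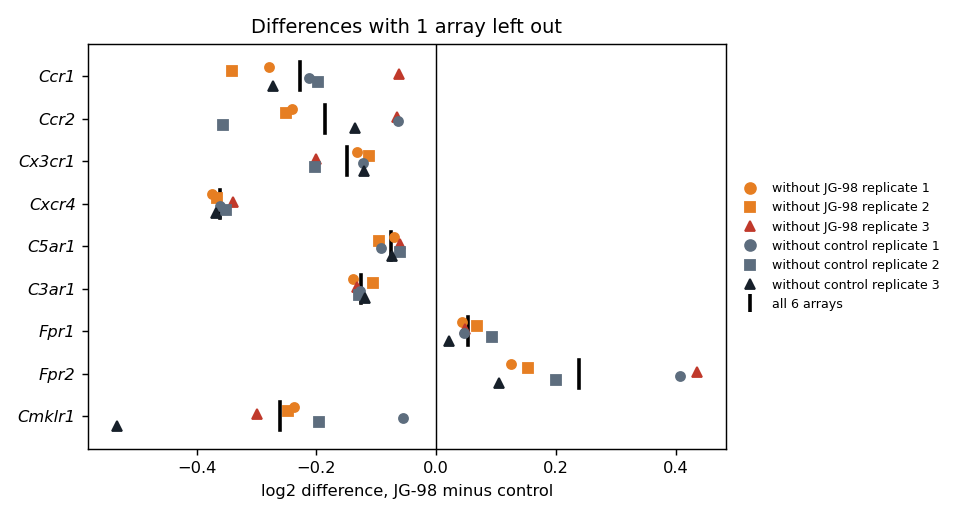
Log2 difference, JG-98 minus control (horizontal axis), of each receptor with all 6 arrays (black bars) and with each array left out in turn (points). Every point lies on the same side of 0 as its bar, Cxcr4 stays between -0.37 and -0.34, and Cmklr1 spans -0.53 to -0.06.

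The receptors did not share 1 pattern over the arrays. Over the 36 pairs, Pearson's r across the 6 arrays ran from -0.77 for Ccr2 with Fpr1 to 0.93 for Cxcr4 with C3ar1. After the group means were removed, the r of Cxcr4 with C3ar1 was -0.18. The named genes most like Cxcr4 over the 6 arrays, among 7968 genes with a mean of at least 6, were Cd28 (r = 0.999), Ms4a4a (r = 0.999) and Samd4 (r = 0.998). Ms4a4a, a membrane protein gene of macrophages, differed by -1.59 (limma adjusted p = 0.015). Those most like C3ar1 were Ip6k1 (r = 0.995), Jpt1 (r = 0.992) and Pgap6 (r = 0.991), and those most like C5ar1 were Garre1 (r = 0.997), Exoc3 (r = 0.992) and Gpatch2l (r = 0.988). For Ccr1 they were Tubb5, Tmem69 and Dstn, for Ccr2 Prkag2, Nedd8 and Fam114a2, and for Cx3cr1 Dvl2, Dhx9 and Il17ra. For the dim Fpr1 they were Ccne1, Scaf11 and Adamts10, for Fpr2 Erap1, Mettl8 and Nup88, and for Cmklr1 they included Bend4 and Snx21. With 6 arrays and this many genes searched, every receptor had a gene at r of at least 0.968, including the dim receptors. The arrays share their treatment groups and their normalization.

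By position, Ccr1, Ccr1l1, Ccr3 and Ccr2 lie side by side on chromosome 9 in RefSeq. Ccr3, the eotaxin receptor, had log2 values of 4.98, 5.03 and 4.71 on JG-98 arrays, against 5.26, 5.34 and 5.17 on control arrays, and its difference was -0.35 ± 0.10 (limma adjusted p = 0.46). Ccr1l1 differed by -0.26 (limma adjusted p = 0.70). Receptors of this cluster, and the formyl peptide receptors of chromosome 17, are similar in sequence, and shared signal between their probes was not tested.

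Among 20 other chemokine receptors, none passed, and 2 had an unadjusted p under 0.05, both lower, where 4.48% of all probe sets had such a p with JG-98 lower. Their median difference was 0.02. Beside Ccr3, the smallest p-values were those of Ccr4 at -0.26, Ccr10 at 0.17 and Cxcr6 at -0.25, all at log2 values under 3.5. Among 14 other measured chemoattractant receptors, none passed, with a median of -0.05. With JG-98 higher, 1 had an unadjusted p under 0.05, and with JG-98 lower 2, against 3.84% and 4.48% of all probe sets. All JG-98 values lay above all control values for 2 and below them for 2, against 7.12% and 8.44%. Ptafr, the receptor of platelet-activating factor, had log2 values of 10.12, 10.18 and 10.15 on JG-98 arrays, against 10.33, 10.40 and 10.34 on control arrays. Its difference was -0.21 ± 0.063 (limma adjusted p = 0.48). It passed with an intensity trend (limma adjusted p = 0.028), where 1.01% of all probe sets were called. It also passed at a mean of at least 6 (limma adjusted p = 0.045), where 4.77% were called. It did not pass at a mean of at least 5 (limma adjusted p = 0.074) or with array weights (limma adjusted p = 0.21). Fpr-rs7 differed by 0.21, Fpr3 by -0.26 and the leukotriene B4 receptor gene Ltb4r1 by -0.22, all dim.

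Genes of the receptors' ligands were measured beside them. Of 18 ligand genes, none passed over all probe sets, 7 had an unadjusted p under 0.05, all higher, and in 7 the JG-98 arrays were all above the controls. Their median difference was 0.06. Over all probe sets 3.84% had such a p with JG-98 higher, and in 7.12% all JG-98 values lay above. With an intensity trend, under which 1.01% of all probe sets were called, 4 passed, all higher (Ccl2, Ccl3, Ccl7 and Saa3). Limited to probe sets with a mean of at least 6, where 4.77% were called, Ccl2, Ccl3 and Ccl7 passed. At a mean of at least 5, where 2.3% were called, Ccl2 and Ccl7 passed. With array weights, under which 25 of 25206 probe sets were called, Ccl2 passed.

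Of the ligand genes of Ccr2, Ccl12 differed by 0.02 (limma adjusted p = 0.98), with overlapping groups. Its mean log2 value was 3.94, within the range of the markers of other cell types. Ccl2, the main chemoattractant of monocytes, had log2 values of 8.59, 8.61 and 8.54 on JG-98 arrays, against 8.09, 7.95 and 7.94 on control arrays, a difference of 0.59 ± 0.072 (limma adjusted p = 0.13). Ccl7, which binds Ccr1 and Ccr2, had 7.50, 7.33 and 7.48 on JG-98 arrays, against 6.87, 6.66 and 6.93 on control arrays, a difference of 0.61 ± 0.096 (limma adjusted p = 0.20). Saa3, of the serum amyloid A family whose members can act through FPR2, had 5.17, 5.20 and 5.81 on JG-98 arrays, against 4.40, 4.46 and 4.16 on control arrays, a difference of 1.06 ± 0.19 (limma adjusted p = 0.24). All JG-98 values of these 3 genes were higher than all control values. For Ccl5, a ligand of Ccr1, JG-98 replicate 3 at 6.36 stood above the other JG-98 values of 5.16 and 5.24, against 4.09, 4.45 and 4.53 on control arrays. The difference in Ccl5 was 1.23 ± 0.33 (limma adjusted p = 0.41). The control values of Saa3 and Ccl5 lay within the range of the markers of other cell types, so their differences start from values that could not be told from background and may be understated.

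For the other receptors, ligand genes did not pass either. Cxcl12, the ligand of Cxcr4, had log2 values of 3.44 to 3.67 on JG-98 arrays and 3.38 to 3.66 on control arrays. Mif, an alternative ligand of Cxcr4, differed by 0.29 ± 0.13 (limma adjusted p = 0.63). C3, from which C3a is cut, differed by 0.32 ± 0.085 (limma adjusted p = 0.41) with all JG-98 values higher. Hc, which encodes complement C5, differed by -0.01, Cx3cl1 by -0.23, the chemerin gene Rarres2 by -0.10 and Anxa1 by 0.05. Mean log2 values were 2.69 for Hc, 4.46 for Cx3cl1, 3.86 for Rarres2 and 10.62 for Anxa1. Those of Hc, Cx3cl1 and Rarres2, like the values of Cxcl12, lay within the range of the markers of other cell types. Small differences in such dim genes do not show that their RNA was present and unchanged. A difference in opposite directions between a receptor and its ligand was not tested.

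**Figure D3:**
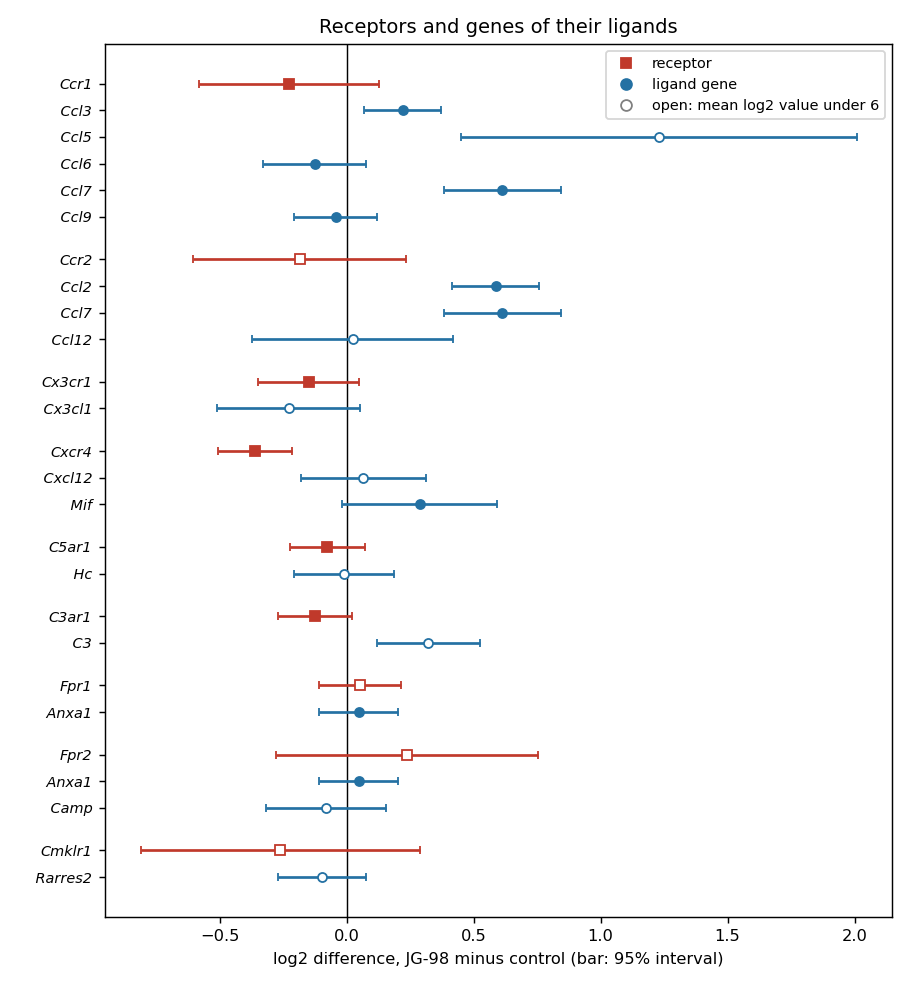
Log2 difference, JG-98 minus control (horizontal axis, bars are unadjusted 95% intervals), of each receptor (squares) and of genes of its ligands (circles) listed under it, with open symbols for a mean log2 value under 6. Among the receptors, the interval of Cxcr4 alone lies off 0, at -0.51 to -0.21, while those of Ccl2, Ccl3, Ccl5, Ccl7 and C3 lie above 0.

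Of 32 genes that carry or end the signal of these receptors, none passed, and the median difference was -0.02. In the upward direction 0 had an unadjusted p under 0.05 and in the downward direction 3, against 3.84% and 4.48% of all probe sets. Of the 32, 30 had a mean of at least 6, where 464 of 8064 probe sets had such a p upward and 619 downward. The receptor kinase gene Grk6 differed by -0.21 ± 0.068 (limma adjusted p = 0.49), the G protein subunit gene Gng2 by -0.18 ± 0.063, and Pik3r6, an adaptor of phosphoinositide 3-kinase gamma, by -0.21 ± 0.075. Pik3r5, the other adaptor of that kinase, differed by 0.13 ± 0.059 (limma adjusted p = 0.62). Gnai2, the main inhibitory G protein subunit of leukocytes, differed by -0.01 ± 0.062, and the arrestin genes Arrb1 and Arrb2 by -0.08 ± 0.065 and -0.02 ± 0.065.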

How the data were processed

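Single-colour Affymetrix arrays measured 6 RNA samples, grouped by their labels, with 3 JG-98 and 3 control samples. The values the authors deposited are on a log2 scale, with 1 value for each probe set on each array. The submitters' processing notes name RMA, affy and R 2.15.1 but not what each did, and the label protocol describes whole-transcript biotin labelling. RMA quantile normalization, where used, removes a shift common to all genes. Array medians were 4.08 to 4.24. No detection p-value was used. The number of arrays limits the precision.

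Each probe set ID is an Entrez gene number. The platform annotation named 23185 probe sets, and a RefSeq table of assembly GRCm38.p6 named 555 more, Fpr1 among them, leaving 1466 unnamed. Values of different probe sets were compared only with the markers of cell types and with the cuts on mean level. They were not otherwise ranked against each other.

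JG-98 minus control was fitted in limma 3.58.1 under R 4.3.3 (lmFit, eBayes, two-sided, no covariate, 2.59 prior degrees of freedom), with Benjamini-Hochberg adjustment over all 25206 probe sets and a threshold of 0.05. The fit was also run on simulated data with independent noise, no outlying array and set differences all larger than that of Cxcr4. That run does not bear on smaller differences or on an array that stands apart. The other settings were an intensity trend or a robust prior in eBayes, array weights, median centring, a second quantile step, minimum means of 5 and 6, the replicate number as a block, and each array left out. The receptors, the gene lists, the tests and the other settings were chosen with earlier results of these data known. All 9 receptors are named, up to 4 genes per related list by smallest p, and the 3 genes most like each receptor. Others (Ccl12, Cxcl12, Mif, C3, Hc, Cx3cl1, Rarres2, Anxa1, Ccl3, C5ar2, Ccr1l1, Gnai2, Arrb1 and Arrb2) were chosen after their values were seen. Cmklr2, Lyz2 and Hba-a1 were not found by symbol and are not analysed here. Some genes that the naming rules would give are not reported here. Promoter letters are RefSeq's.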

Additional observations from a re-analysis of the deposited data

How the results depend on the processing

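The 14 other settings gave 118 differences for single receptors. All 118 kept their direction. With an intensity trend, a robust prior, a replicate block or a minimum mean, direction could not change, because the fitted difference is the same. Of the 118, 115 stayed on the same side of the threshold. The other 3 were Cxcr4 at -0.36 with an intensity trend, with a mean of at least 5 and with a mean of at least 6. The count of receptors called was 1 in those settings and 0 in the others. The adjusted p of Cxcr4 ran from 0.0051 to 0.75 (limma). The count of probe sets called, 10, was 254 with an intensity trend, 234 with a mean of at least 5, 385 with a mean of at least 6 and 25 with array weights. With 1 array left out it was 0 to 5. With a replicate block it was 0, when the adjusted p of Cxcr4 was 0.67. Deviations of same-numbered arrays from their group means correlated at 0.095, -0.13 and 0.10. By this measure, control replicate 1 was nearest to JG-98 replicates 1 and 2, and control replicate 2 to JG-98 replicate 3. With 3 arrays per group, these values cannot decide whether the numbers pair the samples. Of the settings, the block leaves the fewest residual degrees of freedom. The cause of the other changes was not tested. The 4 dim receptors were not in the tests limited by level.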
